A study of Mus musculus with 6 samples.

Results

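The insulin and insulin-like growth factor (IGF) signalling genes of the mouse pituitary were the 10 genes whose symbols stand in the deposited count table as IGF1, IGF1R, INSR, IRS1, IRS2, IGFBP2, IGFBP3, IGFBP4, IGFBP5 and CISH. All 10 had a row among the 16736 rows of the table, and all 10 passed the filter on low counts that left 13873 genes for testing. The table holds 3 libraries labelled HFD and 3 labelled RD, made from polyadenylated RNA of the pituitary of male mice that were fed for 4 h after a 16 h fast. HFD and RD are not written out in the labels, which also carry no strain and no age. Whether replicates are different animals is not stated either, so p-values here reflect variation among the libraries alone, part of which may be technical. The title of the series asks about obesity and the unfolded protein response between pituitary and liver.

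Growth hormone from the somatotrophs of the pituitary acts on the liver and other tissues through JAK2 and STAT5 and raises IGF1 there, and circulating IGF1 feeds back on the gland to restrain growth hormone. IGF1 and insulin bind the related receptor tyrosine kinases IGF1R and INSR, whose docking proteins IRS1 and IRS2 carry the signal to PI3 kinase and AKT. The IGF binding proteins hold IGF1 and IGF2 outside the cell, and proteases release the ligands from them. CISH belongs to the SOCS family of feedback inhibitors, is induced by STAT5 and dampens cytokine receptor signalling.

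IGF1, IGFBP5 and CISH rose in HFD pituitaries, by 2.15-fold, 1.20-fold and 1.36-fold, and the 7 other genes did not pass an adjusted p of 0.05 in edgeR's quasi-likelihood test. The count of 3 called higher among 10 stands beside 5.87% of all tested genes called higher, 4.61% called lower and 10.5% called in either direction. The receptors IGF1R and INSR and the substrate IRS1 had negative log2 changes of -0.18 ± 0.06, -0.13 ± 0.08 and -0.16 ± 0.09 (SE), and IRS2 had a positive one of 0.17 ± 0.11. For IGF1, IGF1R, IGFBP5 and CISH, 4 of the 10, the groups' libraries were fully separated, against 32.5% of all tested genes. The median log2 change of the 10 was 0.01, and that of all tested genes was -0.002. In bulk tissue, fewer cells of a type and less RNA per cell cannot be told apart.

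The stretches before the start sites of the 3 genes that rose are shown because STAT5, the factor that induces CISH, recognises a short sequence that can be looked for in them. They are RefSeq sequences on GRCm38.p6, read along the strand of the gene, with the 250 bases before the annotated start. For CISH the first 25 bases after it are added, and they hold its motif matches. For IGF1 and CISH this start lies inside the gene span given below, so the window leaves out the most upstream annotated start. Capitals mark the STAT motif, TTCNNNGAA, which reads the same on both strands.
IGF1, chr10:87860861-87861110, plus strand: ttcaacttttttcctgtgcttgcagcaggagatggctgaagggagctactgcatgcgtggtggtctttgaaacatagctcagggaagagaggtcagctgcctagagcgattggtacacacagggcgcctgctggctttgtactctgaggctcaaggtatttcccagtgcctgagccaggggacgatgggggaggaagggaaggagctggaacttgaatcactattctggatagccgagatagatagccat
IGFBP5, chr1:72874866-72875115, minus strand: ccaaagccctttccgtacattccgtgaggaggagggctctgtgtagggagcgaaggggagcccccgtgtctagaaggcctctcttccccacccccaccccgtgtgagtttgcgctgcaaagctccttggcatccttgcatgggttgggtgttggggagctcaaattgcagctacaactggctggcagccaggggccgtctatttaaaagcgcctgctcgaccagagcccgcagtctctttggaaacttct
CISH, chr9:107296409-107296683, plus strand: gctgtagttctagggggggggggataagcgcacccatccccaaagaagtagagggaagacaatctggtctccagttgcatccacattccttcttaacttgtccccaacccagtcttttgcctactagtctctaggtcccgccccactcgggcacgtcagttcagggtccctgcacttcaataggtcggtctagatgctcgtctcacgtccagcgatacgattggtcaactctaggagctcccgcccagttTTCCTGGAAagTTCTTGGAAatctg

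The CISH window held the STAT motif at 2 places that do not overlap, TTCCTGGAA at bases 1 to 9 and TTCTTGGAA at bases 12 to 20, counted from 1 at the annotated start. Over windows of 300 bases, from 250 before to 50 after a start, 8.30% of 32851 promoters held this motif. The table of promoters had an entry for 9 of the 10 genes, with 2 for IGFBP2 and none for INSR, and CISH was the one gene of the 9 with a match. The other motifs searched, on both strands, were the FOXO motif TGTTTAC and the cyclic AMP response element TGACGTCA, held by 3.65% and 1.79% of promoters, and neither was found in the 9 genes' windows. Such matches describe the letters of the windows and not the binding of a factor.

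IGF1, the ligand that circulates mostly as a liver hormone and is also made locally in many tissues, stood at 16.7, 13.7 and 14.7 CPM in HFD replicates 1, 2 and 3, against 7.16, 9.11 and 4.74 CPM in RD replicates 1, 2 and 3. CPM are counts scaled to library size with TMM factors. Every HFD library was above every RD library, and the lowest was RD replicate 3. The means were 15.01 ± 1.496 CPM in HFD and 7.004 ± 2.19 CPM in RD (SD, n = 3 each). The log2 change was 1.10 ± 0.22 (SE), with an adjusted p of 0.0130 by edgeR's quasi-likelihood test. The gene (ENSMUSG00000020053.18) spans 87858265 to 87937042 on chromosome 10 of mm10, plus strand. Leaving out HFD replicate 1 ended the call (log2 change 1.02, adjusted p = 0.0510, edgeR), as did leaving out HFD replicate 3 (1.12 and 0.0587). The raw counts behind these values were 240, 202 and 217 in HFD and 117, 140 and 82 in RD, few beside most of the 10 genes. The summed level of 6 hepatocyte markers was also higher in every HFD library, at 3.67 to 8.58 CPM in HFD against 1.73 to 2.998 CPM in RD. Most of that sum in each library was TTR alone, at 3.61, 2.45 and 7.77 CPM in HFD and 2.20, 1.30 and 1.04 CPM in RD. TTR was also the only one of these markers tested (3.04-fold, adjusted p = 0.0528, edgeR, and called by DESeq2). ALB was at 0 in 5 of the 6 libraries and at 0.136 CPM in HFD replicate 2. The part of these markers in the value of IGF1 was not tested.

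The other IGF ligand gene, IGF2, did not pass the test. It stood at 11.8, 17.6 and 22.04 CPM in HFD and at 16.5, 18.4 and 15.02 CPM in RD, with a log2 change of 0.05 ± 0.20. The HFD libraries spanned the whole RD range. Its log2 change was -0.18 without HFD replicate 3 and -0.03 without RD replicate 3.

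**Figure D1:**
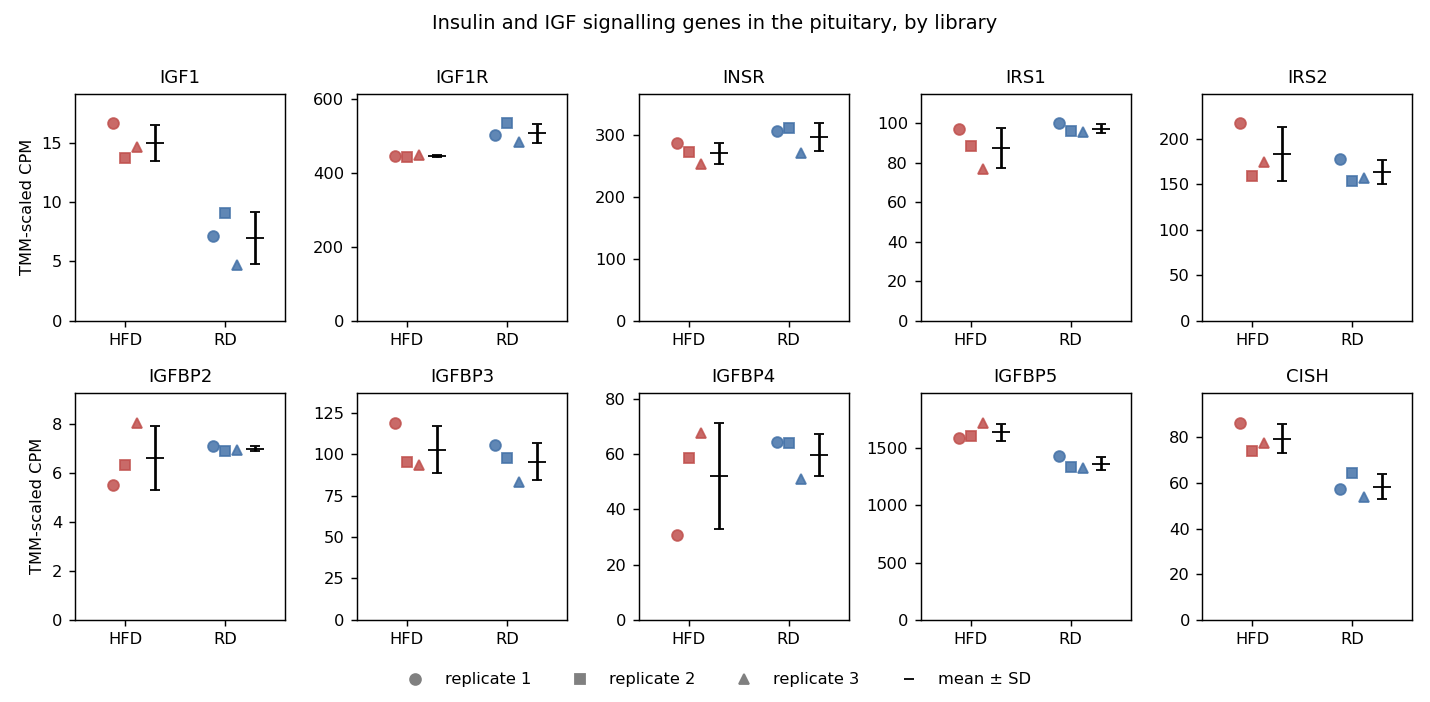
TMM-scaled CPM (vertical axes, each from 0) of the 10 insulin and IGF signalling genes in the 3 HFD and 3 RD libraries; symbols mark replicate numbers and black bars the mean ± SD of a group. The HFD libraries lie above the RD libraries for IGF1, IGFBP5 and CISH and below them for IGF1R, and HFD replicate 1 lies apart for IGFBP4 at 30.7 CPM.

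IGF1R, the receptor for IGF1, stood at 444, 443 and 449 CPM in HFD, against 502, 534 and 482 CPM in RD. The HFD libraries were close together and all below the RD libraries. The means were 445 ± 3.10 CPM in HFD and 506 ± 25.7 CPM in RD, and the difference did not pass the threshold (adjusted p = 0.0749, edgeR). It passed without RD replicate 3, with a log2 change of -0.22 and an adjusted p of 0.0244. The gene spans 67952827 to 68233668 on chromosome 7 of mm10, plus strand.

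INSR, the insulin receptor (chromosome 8, 3122061 to 3279617, minus strand), stood at 287, 272 and 253 CPM in HFD and at 306, 311 and 269.9 CPM in RD. HFD replicate 1 and HFD replicate 2 lay above RD replicate 3, so the groups overlapped (adjusted p = 0.315, edgeR). Within a library, the level of IGF1R per kilobase of exon was 1.27, 1.33 and 1.45 times that of INSR in HFD and 1.34, 1.40 and 1.46 times in RD. This ratio does not depend on scaling between libraries, and it gave p = 0.40 in an exact two-sided permutation test (0.40 after Benjamini-Hochberg adjustment over the 2 ratios computed).

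The docking proteins took opposite signs without either passing the test. IRS1 (chromosome 1, 82233101 to 82291416, minus strand) stood at 96.8, 88.3 and 76.8 CPM in HFD and at 99.9, 96.2 and 95.6 CPM in RD (adjusted p = 0.307, edgeR). IRS2 (chromosome 8, 10984681 to 11008458, minus strand) stood at 217, 159.5 and 175 CPM in HFD and at 178, 154 and 157 CPM in RD (adjusted p = 0.360, edgeR). HFD replicate 1 lay between RD replicates for IRS1 and above all of them for IRS2, and both genes overlapped between the groups.

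The ratio of IRS2 to IRS1 per kilobase was higher in each HFD library than in each RD library, at 3.24, 2.61 and 3.29 in HFD against 2.58, 2.32 and 2.38 in RD. The exact two-sided permutation test gave p = 0.10, the smallest value that 3 libraries against 3 allow, and 0.20 after adjustment over the 2 ratios, so it could not pass the threshold. This ratio was chosen after the values of both genes had been seen. HFD replicate 2 and RD replicate 1 were nearly level. An annotated gene on the opposite strand, Gm9747, covers 30.9% of the exon bases of IRS1, and the sources used here do not say whether counting used strand, so reads of the pair may not be separated.

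**Figure D2:**
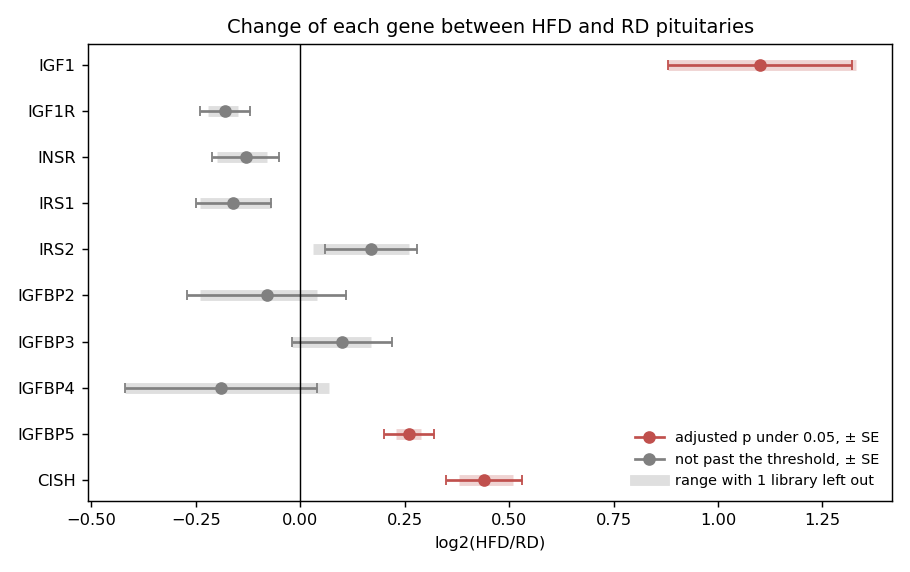
Log2(HFD/RD) of each of the 10 genes (horizontal axis) with its standard error as thin bars; thick pale bars give the range over the 6 fits with 1 library left out. IGF1 at 1.10, CISH at 0.44 and IGFBP5 at 0.26 are the 3 past an adjusted p of 0.05, and the ranges of IGFBP2, IGFBP3 and IGFBP4 cross 0.

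IGFBP5 had the highest level per kilobase of exon of the 10 genes in every library. It encodes a binding protein that is held in the extracellular matrix, where it can restrain or prolong IGF action. It stood at 1586, 1607 and 1725 CPM in HFD, against 1429.97, 1334 and 1329 CPM in RD. All HFD libraries were above all RD libraries, with means of 1639 ± 74.8 CPM in HFD and 1364 ± 57.0 CPM in RD. The log2 change was 0.26 ± 0.06, with an adjusted p of 0.0185 in edgeR's quasi-likelihood test. Leaving out HFD replicate 2 (adjusted p = 0.0688, edgeR), HFD replicate 3 (0.1001) or RD replicate 2 (0.0691) ended the call. IGFBP5 spans 72857932 to 72874884 on chromosome 1 of mm10, minus strand, next to IGFBP2 on the plus strand (72824503 to 72852474), with their ends facing each other.

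IGFBP2, a binding protein that rises with fasting in liver, did not pass the test. It stood at 5.48, 6.32 and 8.04 CPM in HFD and at 7.10, 6.90 and 6.93 CPM in RD, with a log2 change of -0.08 ± 0.19. The RD libraries were nearly level, and the HFD libraries lay on both sides of them.

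IGFBP3, the main carrier of IGF1 in blood (chromosome 11, 7206086 to 7213923, minus strand), stood at 119, 95.3 and 93.4 CPM in HFD and at 106, 97.4 and 83.3 CPM in RD. The groups overlapped, and the log2 change was 0.10 ± 0.12 (adjusted p = 0.614, edgeR). IGFBP1, its neighbour on chromosome 11 and a binding protein that insulin represses in liver, had 9, 10 and 10 counts in HFD and 4, 0 and 4 counts in RD. It did not pass the filter on low counts and was not tested.

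IGFBP4, an inhibitory binding protein (chromosome 11, 99041244 to 99054392, plus strand), stood at 30.7, 58.5 and 67.7 CPM in HFD and at 64.5, 64.1 and 51.1 CPM in RD. HFD replicate 1 was the lowest of the 6 libraries and HFD replicate 3 the highest. The log2 change was -0.19 ± 0.23, and 0.07 without HFD replicate 1. That library was also the lowest for the summed level of 8 markers of posterior lobe pituicytes and neural lobe terminals, at 126 CPM, against 253 and 251 CPM in HFD replicates 2 and 3 and 343, 216 and 239.99 CPM in the RD libraries. All 8 of these markers were tested, and 1 (VIM) was called, lower in HFD. GFAP and AVP were not at their lowest in HFD replicate 1. The summed mural and fibroblast markers were also lowest in that library, at 617 CPM, against 720 to 806 CPM in the other libraries. Of this set, PDGFRB, PDGFRA, RGS5, CSPG4 and DPT were not at their lowest there. The part of either marker set in the value of IGFBP4 was not tested.

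The make-up of the binding protein transcripts can be given within a library, free of scaling between libraries. Of the summed levels per kilobase of IGFBP1 to IGFBP7, IGFBP5 took 77.8%, 76.9% and 77.9% in HFD, against 74.6%, 73.0% and 75.5% in RD. IGFBP3 followed with a mean of 9.35% in HFD and 9.96% in RD, then IGFBP7 with 7.67% in HFD and 8.51% in RD, and IGFBP4 with 3.34% in HFD and 4.43% in RD. IGFBP6, IGFBP2 and IGFBP1 held 0.961%, 1.01% and 0.123% in HFD, and 1.45%, 1.24% and 0.0340% in RD. IGFBP5 was thus the leading transcript of the family in every library, and its share did not overlap between the groups. The shares of IGFBP1 (higher in HFD) and IGFBP2 (lower in HFD) did not overlap either, and no share was tested. A share also falls when another gene of the sum rises, and the CPM of IGFBP2 overlapped between the groups. IGFBP1 rested on 0 to 10 counts a library.

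**Figure D3:**
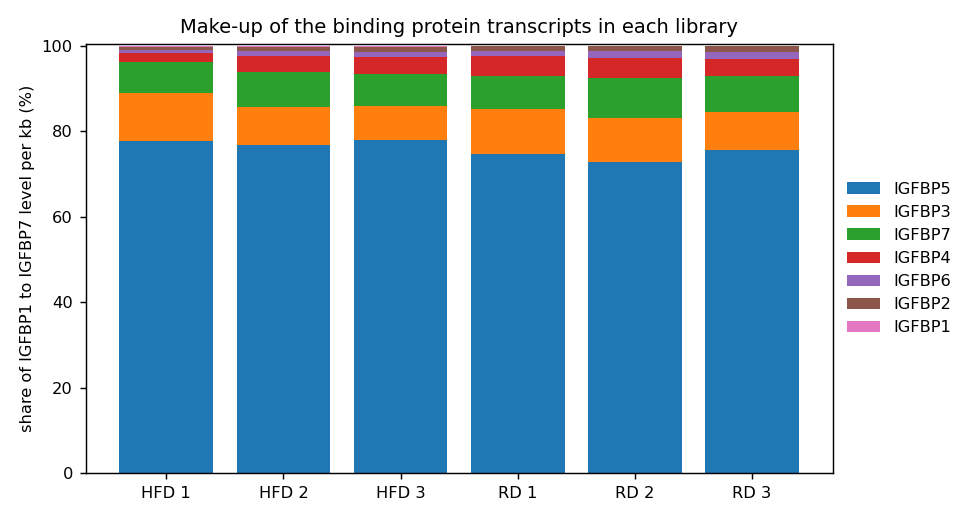
Share (vertical axis, percent) of each of the 7 binding protein genes in their summed level per kilobase of exon, for each HFD library and each RD library. IGFBP5 takes between 73.0% and 77.9% of every bar.

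CISH, the STAT5-induced inhibitor (chromosome 9 of mm10, 107296026 to 107302784, plus strand), stood at 86.4, 74.1 and 77.5 CPM in HFD, against 57.3, 64.1 and 53.7 CPM in RD. All HFD libraries were above all RD libraries. The means were 79.4 ± 6.37 CPM in HFD and 58.4 ± 5.27 CPM in RD, a log2 change of 0.44 ± 0.09 with an adjusted p of 0.0179 in edgeR's quasi-likelihood test. CISH no longer passed when HFD replicate 1 was left out (log2 change 0.38, adjusted p = 0.0690, edgeR) or HFD replicate 3 (0.46 and 0.0691). Annotated non-coding genes on the opposite strand, Gm17041 and Gm17040, cover 7.46% and 4.07% of its exon bases.

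The relatives of CISH did not pass the test. SOCS2, another inhibitor induced by STAT5, stood at 87.2, 91.3 and 86.3 CPM in HFD and at 86.5, 95.7 and 91.2 CPM in RD (log2 change -0.05 ± 0.07, and 0.02 when scaled by library size alone). SOCS1 had a log2 change of 0.62 ± 0.24 (adjusted p = 0.125, edgeR) and SOCS3 one of 0.28 ± 0.22 (0.470). The STAT5 genes themselves had log2 changes of 0.37 ± 0.14 for STAT5A (adjusted p = 0.121) and 0.25 ± 0.08 for STAT5B (0.0816). For SOCS1, STAT5A and STAT5B every HFD library was above every RD library, without the adjusted p passing the threshold. Full separation held for 8 of the 23 tested genes of growth hormone and prolactin receptor signalling other than IGF1 and CISH. Of these 8, HFD lay above in 4 and below in 4, and 32.5% of all tested genes were separated. STAT5A passed without RD replicate 2 (0.0449), and STAT5B when scaled by library size alone (0.0440).

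The receptors and kinase upstream of STAT5 did not pass either. GHR, the growth hormone receptor, averaged 17.8 ± 0.561 CPM in HFD and 19.5 ± 2.32 CPM in RD, PRLR, the prolactin receptor, 148 ± 14.1 CPM in HFD and 159.8 ± 22.6 CPM in RD, and JAK2 103 ± 4.86 CPM in HFD and 115 ± 12.2 CPM in RD (SD, n = 3 each). Of the 23 tested genes of growth hormone and prolactin receptor signalling other than IGF1 and CISH, 2 fell and 21 did not pass, with a median log2 change of -0.08. The 8.70% called lay near the 10.5% of all tested genes. The 2 were PIM1, a kinase gene that STAT factors induce (-0.66 ± 0.15), and the JAK family gene TYK2 (-0.27 ± 0.07). Both calls ended when any HFD library or RD replicate 2 was left out, and TYK2 passed in 8 of 16 alternative settings. GH1, the growth hormone gene, fell to 38005 ± 1472 CPM in HFD, against 67336 ± 7285 CPM in RD (log2 change -0.83 ± 0.07).

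Levels of different genes are compared here per kilobase of annotated exon, as CPM divided by the length of the merged exons. In HFD the order was IGFBP5 (273 ± 12.5), IGFBP3 (32.8 ± 4.57), IRS2 (29.1 ± 4.70), IGF1R (26.5 ± 0.185), INSR (19.7 ± 1.24), CISH (12.4 ± 0.993), IGFBP4 (11.8 ± 4.35), IRS1 (9.55 ± 1.10), IGFBP2 (3.58 ± 0.708) and IGF1 (1.52 ± 0.151). In RD the level of IGFBP5 was 227 ± 9.49, those of IGFBP3, IGF1R, IRS2 and INSR lay between 30.5 and 21.5, those of IGFBP4, IRS1 and CISH between 13.6 and 9.10, and those of IGFBP2 and IGF1 were 3.78 ± 0.0568 and 0.707 ± 0.221. In RD, IGFBP3 overlapped both IGF1R and IRS2, and no other pair among the 10 overlapped. In HFD, IRS2 overlapped both IGFBP3 and IGF1R, and IGFBP4 overlapped both CISH and IRS1. Divided by the longest transcript instead, in RD IGF1R stood above IGFBP3, INSR above IRS2 and CISH above IRS1. In HFD that length put IGF1R (39.0) above IRS2 (29.1). IGFBP5, IGFBP2 and IGF1 kept their places in both groups.

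Of the other genes of the IGF system, 4 fell in HFD and 9 of the 13 tested did not pass (30.8% called, against 10.5% of all tested genes). IGF2R, which binds IGF2 for degradation and also sorts lysosomal enzymes, stood at 121, 137 and 113 CPM in HFD, against 169, 194 and 204 CPM in RD (log2 change -0.61 ± 0.09, adjusted p = 0.00463, edgeR). PAPPA, a metalloprotease that cleaves IGFBP4, stood at 23.4, 19.4 and 20.4 CPM in HFD, against 38.3, 46.6 and 76.9 CPM in RD (-1.36 ± 0.23, adjusted p = 0.00664). PAPPA2, its relative that cleaves IGFBP3 and IGFBP5, stood at 187, 154 and 154 CPM in HFD, against 213, 275 and 308 CPM in RD (-0.68 ± 0.13). In all 3 genes every HFD library was below every RD library, and RD replicate 3 was the highest. Of the 13 tested genes, 5 were fully separated, with HFD below in 4 and above in 1, against 32.5% of all tested genes.

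The last of the 4 genes that fell was IRS4, a docking protein related to IRS1 and IRS2. It averaged 171 ± 18.6 CPM in HFD and 245 ± 40.9 CPM in RD (log2 change -0.52 ± 0.12, adjusted p = 0.0251, edgeR). Leaving out any single library kept the calls of IGF2R and PAPPA. That of PAPPA2 ended without HFD replicate 2 or HFD replicate 3 (largest adjusted p 0.0690, edgeR), and that of IRS4 without HFD replicate 1, HFD replicate 2 or RD replicate 2 (largest 0.111). IGFBP6 and IGFBP7 did not pass, with log2 changes of -0.37 ± 0.29 and 0.05 ± 0.10. IGFALS, which stabilises circulating IGF complexes, was below the filter, with 0 to 6 counts in a library.

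**Figure D4:**
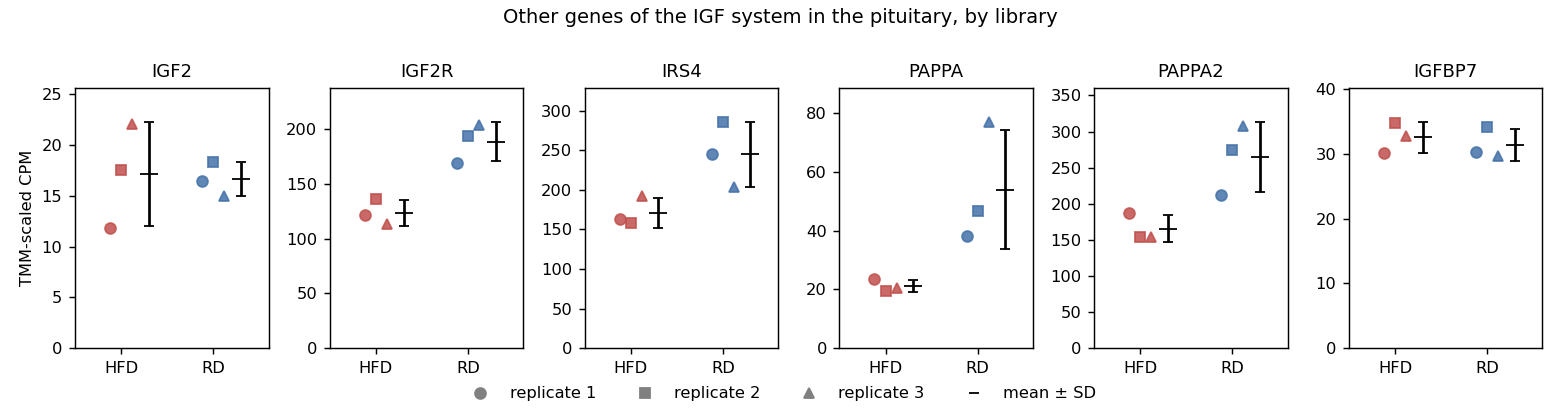
TMM-scaled CPM (vertical axes, each from 0) of 6 other genes of the IGF system in the 3 HFD and 3 RD libraries, with the mean ± SD of each group in black. IGF2R, IRS4, PAPPA and PAPPA2 lie lower in every HFD library than in any RD library, while IGF2 and IGFBP7 overlap.

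Next to the receptors, 34 genes for adaptors, PI3 kinase subunits and brakes were tested, of which 1 rose, 4 fell and 29 did not pass (14.7% called, against 10.5% of all tested genes, median log2 change -0.10). SHC2, an adaptor of receptor tyrosine kinases, rose (1.46 ± 0.32). Among the genes that fell were the adaptor GRB7 (-0.62 ± 0.12) and PTPN1, a phosphatase that removes phosphate from the insulin receptor (-0.54 ± 0.12). Leaving out any single library kept the call of GRB7. The call of PTPN1 ended without HFD replicate 2 or HFD replicate 3 (largest adjusted p 0.115, edgeR), and that of SHC2 without HFD replicate 1 or HFD replicate 2 (largest 0.0898). PIK3R1, the main regulatory subunit of PI3 kinase, had a log2 change of -0.12 ± 0.11 and the inhibitory adaptor GRB10 one of -0.20 ± 0.17.

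Downstream of PI3 kinase, 33 genes were tested, of which 1 rose, 3 fell and 29 did not pass (12.1% called, near the 10.5% of all tested genes, median log2 change -0.11). The kinase gene SGK1 rose (0.57 ± 0.14), and the hexokinase gene HK2 (-0.59 ± 0.13), the glucose transporter gene SLC2A1 (-0.56 ± 0.13) and the translation repressor gene EIF4EBP2 (-0.22 ± 0.06) fell. No more than 1 of these 4 calls held when an HFD library was left out, and without RD replicate 2 those of SLC2A1 and EIF4EBP2 also ended. EIF4EBP2 passed in 7 of 16 alternative settings. AKT1 and AKT2 had log2 changes of -0.06 ± 0.07 and 0.25 ± 0.07, and the transcription factor genes FOXO1 and FOXO3 of -0.13 ± 0.07 and 0.07 ± 0.11. AKT2 had an adjusted p of 0.0597 in edgeR's test. It passed with upper-quartile scaling, and when scaled by library size alone (0.0328).

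Of 18 genes known to rise when FOXO factors are active, IRS2 left out, 1 rose and 17 did not pass (5.56% called, against 10.5% of all tested genes, median log2 change 0.02). TXNIP, which also responds to glucose, stood at 531, 527 and 506 CPM in HFD, against 302, 366 and 319 CPM in RD (0.66 ± 0.08, adjusted p = 0.00145, edgeR), and no single library ended its call. By DESeq2 3 genes of this list passed. Among receptors and ligands of other cytokines that act through STAT factors, with BCL3 and CEBPD, which are neither, 12 genes were tested. Of these, 2 fell (16.7% called, against 10.5% of all tested genes). They were IL6ST, the shared signalling chain of the interleukin 6 family (-0.37 ± 0.07), and OSMR, the oncostatin M receptor (-0.74 ± 0.13). IL6ST did not pass without HFD replicate 1 or HFD replicate 2.

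**Figure D5:**
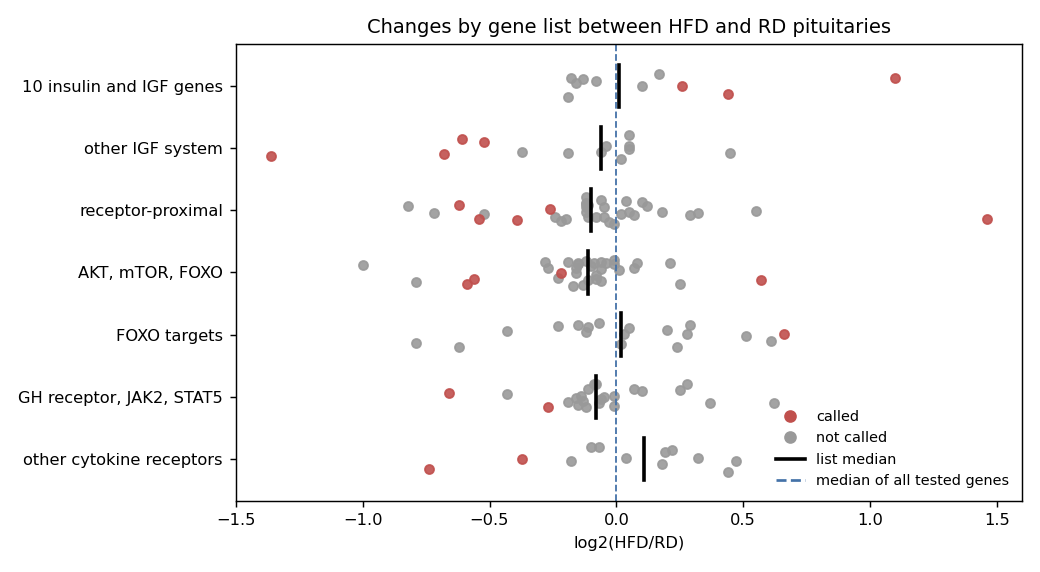
Log2(HFD/RD) (horizontal axis) of each tested gene in the 10 insulin and IGF genes and in 6 further lists; red points passed an adjusted p of 0.05, black bars are list medians and the dashed line is the median of all tested genes. List medians lie between -0.11 and 0.11, and the called genes of the other IGF system genes all lie below 0.

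The genes whose levels over the 6 libraries were most like those of IGF1, by Pearson correlation of log2 CPM among 12802 genes averaging 1 or more on that scale, were FIRRE (r = 0.998), NYNRIN (0.998) and RIMBP2 (0.996). Those most like CISH were CADM2 (0.994), OAS2 (0.992) and PTPRD (0.992). With 6 libraries in 2 groups, 301 genes reached r over 0.95 with IGF1 and 188 with CISH, so these values are a description.

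Totals of the listed rows ranged from 14185372 to 14384933 counts in HFD libraries and from 15702214 to 18111345 in RD libraries, and 3 counts correspond to 0.173 to 0.208 CPM. The 7 pituitary hormone genes summed to 58322 to 65152 CPM in HFD and 85057 to 95537 CPM in RD, and 6 of the 7 were called, TSHB and CGA higher and GH1, PRL, FSHB and LHB lower. Summed levels of 6 adipocyte markers were 2.45 to 4.12 CPM in HFD and 1.91 to 2.51 CPM in RD, with LEP at 0 in every library. Summed endothelial markers stood at 487 to 542 CPM in HFD and 494 to 504.3 CPM in RD, and summed myeloid markers at 99.4 to 117 CPM in HFD and 86.4 to 114 CPM in RD. By edgeR none of the 11 endothelial and 10 tested myeloid markers was called, with 3 and 0 at an unadjusted p under 0.05 and 0 called by DESeq2 or limma-voom. Mural and fibroblast markers summed to 617 to 730 CPM in HFD and 751 to 806 CPM in RD. Of 10 tested, 1 was called higher (CSPG4) and 1 lower (COL1A2), and 5 log2 changes were positive and 5 negative. COL1A2 alone stood at 166, 168 and 195 CPM in HFD, against 248, 294 and 311 CPM in RD. Folliculostellate and stem cell markers summed to 248.8 to 286 CPM in HFD and 234 to 258 CPM in RD, with 1 higher and 1 lower of 9. The part of these marker levels in the changes of IGF1, IGFBP5 and CISH was not tested.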

How the data were processed

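The authors deposited 1 table of raw counts (genes by 6 libraries), which was used with no change. The submitters' processing notes name mm10 as build. Aligner, counting tool and annotation: not given in the sources used here. Rows carry upper-case symbols, 43 of which stand on 2 rows and were tested one by one; none of the 10 genes is among them. Of counts from 1 to 10, 64.0% to 67.0% were even, against 48.9% to 50.4% above 200, so counts may include both mates of a pair and errors are taken from the spread between libraries. No libraries of a group agreed within counting noise, which would mark 1 library deposited again (chi-square over its degrees of freedom 4.48 to 21.1, raised if both mates were counted), and each was counted as 1 sample. This does not show that they are separate animals.

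The main test was that of edgeR 4.0.16 under R 4.3.3 (quasi-likelihood, two-sided; TMM factors; minimum count 10 and minimum total 15; intercept and diet), with Benjamini-Hochberg adjustment over all 13873 tested genes and a threshold of 0.05. Standard errors (SE) are the absolute log2 change over the root of its F statistic. Coordinates and lengths come from GENCODE M21 on GRCm38, promoters from RefSeq on GRCm38.p6. The fits were tested on simulated counts. The 10 genes, the further lists and the rule for named genes (the 10, a fixed set of 24, up to 6 called genes of a list with the smallest p, and the 3 most alike in pattern to IGF1 and CISH) were chosen with earlier results of these data known. Genes of the set are left out of the further lists, and some genes that the rule names are not reported here. Marker genes named beside IGFBP4 were chosen after their values were seen. Alternatives were other scalings and filters, DESeq2 1.42.0, limma-voom (limma 3.58.1), halved counts, a replicate block, other thresholds, each library left out, and the longest transcript as length.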

Additional observations from a re-analysis of the deposited data

How the results depend on the processing

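Of all tested genes 1453 were called, and 431 to 1523 with 1 library left out; the count of the 10 genes, 3 as reported, was then 0 to 4. Leaving out HFD replicate 1 gave 1 (4.99% of all genes called); leaving out HFD replicate 3 gave 0 (3.08% of all genes), with 4 of the 10 at an unadjusted p under 0.05 in edgeR. Under the 8 settings with another scaling, filter or tool, and with halved counts, IGF1, IGFBP5 and CISH stayed called. Called genes with 1 library left out numbered 2 to 4 in the other IGF system (4 as reported), 1 to 5 next to the receptors (5), 0 to 7 downstream of PI3 kinase (4), 1 to 4 of the FOXO targets (1), 0 to 3 in growth hormone receptor signalling (2) and 1 to 3 of the other cytokine receptors (2). At a threshold of 0.01 the counts were 412 of all genes, 0 of the 10, and 2, 0, 0, 1, 0 and 1 in those lists. At 0.1 they were 2343 of all genes, 4 of the 10, 3 of the FOXO targets and 5 in growth hormone receptor signalling. Scaling by library size alone put 72.5% of calls higher in HFD, against 56.0% as reported, and 3 genes next to the receptors were called; upper-quartile scaling left 1 in growth hormone receptor signalling, and DESeq2 called 3 FOXO targets. Without HFD replicate 1 the log2 changes of IGFBP2, IGFBP3 and IGFBP4 took the opposite sign; with 1 library left out they ranged from -0.24 to 0.04, -0.02 to 0.17 and -0.42 to 0.07. So did those of IGF2 without HFD replicate 3 or RD replicate 3 (range -0.18 to 0.25; -0.03 without RD replicate 3), FOXO3 without RD replicate 3 (range -0.07 to 0.15), and SOCS2 (0.02) and AKT1 (0.01) with library size only; none of these was called. The causes were not tested.

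The labels number the libraries 1 to 3 in both groups, but same-numbered libraries did not deviate together from their group means (r = -0.127, 0.00371 and -0.0972 over genes). No pairing by number was seen, though with 3 libraries a group a weak one could go unseen. With the replicate block 808 genes were called, 2 of the 10 (IGFBP5 was not, adjusted p = 0.0529), 3 of the other IGF system (IRS4 was not, 0.0657), 2 next to the receptors (PTPN1 was not, 0.0547) and 1 in growth hormone receptor signalling (TYK2 was not, 0.110); EIF4EBP2 was not called either (0.126). Depth limits the rarer genes: IGF1 rests on 82 to 240 counts a library, and IGFBP1 and IGFALS entered the test only with no filter, where the count of the other IGF system stayed at 4.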
